A study of Homo sapiens with 2 samples.

Results

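Long noncoding and antisense RNA genes were compared between HES2 human embryonic stem cells infected with a lentivirus carrying a short hairpin RNA (shRNA) against TFCP2L1 and HES2 cells infected with a scramble lentivirus. The genes were taken from the authors' deposited gene table by symbol: names that start with LINC and a digit, names that end in -AS or a numbered -AS, in -IT1 or in -OT1, and microRNA or small nucleolar RNA host genes. The rule found 30 of the 2005 genes in the table, namely 10 LINC genes, 17 antisense genes and 3 host genes, and none ending in -IT1 or -OT1. HES2 is an established embryonic stem cell line, and the CP2 family factor TFCP2L1 belongs to the pluripotency network in mouse. Both cultures were kept in 10% KSR medium with 10 ng/ml of FGF2 and 10 ng/ml of Activin A for 3 passages, and each gave 1 RNA sequencing library. No difference below therefore has a replicate check, and every ratio compares these 2 libraries, not the conditions.

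Long noncoding RNAs are transcripts without a recognised protein product. An antisense RNA gene lies on the strand opposite a partner gene, often starting close to the partner's promoter and running away from it, and such pairs are often transcribed together. Host genes are transcripts that carry microRNAs or small nucleolar RNAs in their introns or exons. In embryonic stem cells and their early derivatives, long noncoding RNAs are known for expression restricted to a cell type, and several lie beside transcription factor genes of the germ layers.

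The sequences around the starts of LINC00261, GATA6-AS1 and GATA6 are shown because the highest ratios of the set belong to these loci. Each holds 250 bases before and 50 bases after the start, read 5′ to 3′ along the gene's own strand, from RefSeq on GRCh38.p14. LINC00261 is at chr20:22578593-22578892 on the minus strand, GATA6-AS1 at chr18:22168919-22169218 on the minus strand and GATA6 at chr18:22169339-22169638 on the plus strand. Capitals mark a match, on the opposite strand, to the FOXA letters TGTTTAC, which are bound by forkhead factors.
LINC00261: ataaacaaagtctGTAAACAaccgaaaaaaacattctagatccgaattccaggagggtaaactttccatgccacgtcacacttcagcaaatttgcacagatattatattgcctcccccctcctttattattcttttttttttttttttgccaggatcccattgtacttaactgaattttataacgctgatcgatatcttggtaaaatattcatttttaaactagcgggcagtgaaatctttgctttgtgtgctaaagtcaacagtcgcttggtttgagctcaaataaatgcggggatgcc
GATA6-AS1: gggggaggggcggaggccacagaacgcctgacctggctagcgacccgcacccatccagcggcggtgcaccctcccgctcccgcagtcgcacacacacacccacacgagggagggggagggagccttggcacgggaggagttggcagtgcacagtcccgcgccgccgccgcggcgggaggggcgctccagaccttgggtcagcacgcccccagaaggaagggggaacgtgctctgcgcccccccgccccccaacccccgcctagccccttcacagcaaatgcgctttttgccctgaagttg
GATA6: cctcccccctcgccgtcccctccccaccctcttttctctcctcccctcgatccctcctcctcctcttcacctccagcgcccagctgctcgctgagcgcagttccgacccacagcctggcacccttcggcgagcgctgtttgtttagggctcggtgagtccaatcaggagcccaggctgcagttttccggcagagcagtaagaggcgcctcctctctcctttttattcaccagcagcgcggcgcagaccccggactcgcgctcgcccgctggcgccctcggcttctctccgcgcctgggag

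The LINC00261 sequence has a GC content of 37.0%, against 71.3% for GATA6-AS1 and 66.7% for GATA6. Of the 30 genes, 21 had a promoter sequence in the reference, and 6 motifs were searched in them on both strands. TGTTTAC was found in LINC00261 alone, starting 237 bases before the gene's start, and it is present in 3.41% of all 27305 promoters and in 3.12% of the 1378 promoters of genes in the table. The CP2 family motif, a pair of CCAG separated by 6 free bases and the kind of site bound by TFCP2L1 and its relatives, was found in TSPEAR-AS1 alone and is present in 4.14% of all promoters and 5.15% of those of genes in the table. The T-box letters AGGTGTGA, the GATA letters AGATAAG, the TCF/LEF letters CTTTGAT and the FOXH1 letters AATNNACA were in none of the 21 sequences. They are in 0.982%, 2.63%, 2.64% and 11.1% of all promoters, and in 0.653%, 1.74%, 1.89% and 5.66% of the promoters of genes in the table. A match describes the letters in this window and is not a binding site.

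The mature microRNAs of both microRNA host genes are shown because the table measured only the host transcripts. They are from RefSeq, with the seed (bases 2 to 8) in capitals. Those of MIR22HG lie in its exon on chromosome 17, minus strand. Those of MIR205HG lie within the gene on chromosome 1, plus strand, and neither lies wholly within an annotated exon.
hsa-miR-22-3p: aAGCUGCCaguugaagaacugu
hsa-miR-22-5p: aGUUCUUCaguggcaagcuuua
hsa-miR-205-5p: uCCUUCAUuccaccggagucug
hsa-miR-205-3p: gAUUUCAGuggagugaaguuc

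These 4 microRNAs carry 4 different seeds. Their own levels were not analysed here.

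The targeted gene TFCP2L1 (gene ID 29842) was at 0.33 FPKM in knockdown cells and 3.19 FPKM in scramble cells, where FPKM is fragments per kilobase of transcript, scaled to library size. Its inferred reads numbered 69 and 692 in the same order, a level 9.70-fold lower in knockdown cells (exact 95% interval 7.56 to 12.6, counting error only). The libraries held about 22690000 reads (knockdown) and 23470000 reads (scramble), inferred from the deposited values. All 9 markers of primitive streak and endoderm were higher in knockdown cells, with a summed level of 1351 FPKM against 10.84 FPKM in scramble cells, where SOX17 was at the deposited floor of 0.01 FPKM. Of 7 pluripotent markers, SOX2 (86.1 FPKM in knockdown cells, 180.5 FPKM in scramble cells) and UTF1 (14.8 FPKM and 88.7 FPKM, likewise) had rows, both lower, and neither POU5F1 nor NANOG was among the genes of the table. Of 4 neuroectoderm markers, NES (252 FPKM in knockdown cells, 95.9 FPKM in scramble cells) and SIX3 (0.38 FPKM in knockdown cells, 0.01 FPKM in scramble cells) had rows, both higher. Of 5 mesoderm markers PDGFRA had a row and was higher, none of 4 trophectoderm markers had one, and of 4 fibroblast markers COL1A1 was lower and TWIST1 higher. In these bulk libraries, fewer cells of a type and less RNA per cell cannot be told apart, and the part of a changed cell mixture in the results below was not tested.

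Of the 30 noncoding and antisense genes, 12 were deposited as higher and 18 as lower in knockdown cells. The share higher was 40.0%, against 54.1% of the whole table (45.9% of the table was lower) and 54.1% of its 1776 protein-coding genes. The table lists only genes past the authors' limits, so every listed gene had to differ. Of the genes the authors tested, inferred as 18489 from how p-values relate to false discovery rates, 5.86% were listed as higher and 4.98% as lower. A level of 1 FPKM was reached in either library by 29 of the 30 genes. With a pseudocount of 0.1 FPKM, 12 of the 29 were higher by 2-fold or more and 17 were lower by 2-fold or more. Of all 1587 listed genes past that level, 51.6% were higher by 2-fold or more and 44.7% lower by that much. The median log2 ratio of the 29 genes was -1.13, against 1.02 over all listed genes, and since values between -1 and 1 are nearly absent from the table, these medians show on which side the larger share of genes lies. LOXL1-AS1 has the largest false discovery rate of the 30 genes in the authors' deposited table, 0.000465, from a test on the reads of 2 libraries.

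Ratios on the higher side reached further than those on the lower side, as they did in the whole table. Among the genes past 1 FPKM, the median log2 ratio was 1.98 for the 12 higher genes and -1.36 for the 17 lower genes, against 1.52 and -1.38 for the higher and the lower genes of the whole table. At least 4-fold differences were seen for 6 of these 29 genes (20.7%) on the higher side and 3 (10.3%) on the lower side. The table as a whole has 15.1% and 6.74% of its genes there, so the larger higher side is shared with the table. The counting interval lay wholly beyond 2-fold for 9 higher and 8 lower genes, against 37.1% and 27.0% of the table. The members were mostly scarce transcripts: 24 of 30 stayed under 10 FPKM in both libraries, which is 80.0%, against 77.7% of the whole table. The median of the higher of both levels was 4.17 FPKM (3.30 FPKM over the table), and the reads per gene over both libraries ran from 36 to 11920 with a median of 221.

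**Figure D1:**
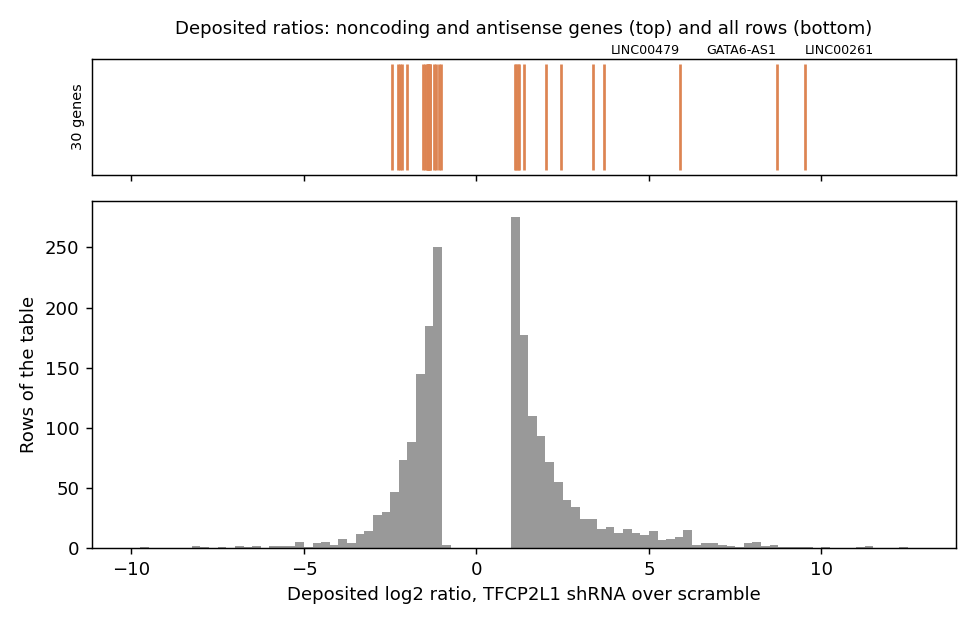
Deposited log2 ratios, knockdown over scramble, of the 30 noncoding and antisense genes (upper panel, 1 line per gene) and of all 2005 genes in the table (lower panel, genes per bin of 0.25). The empty middle is the authors' limit of 1 on the log2 scale, and 3 genes (LINC00261, GATA6-AS1 and LINC00479) lie in the sparse right tail.

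LINC00261 had the highest log2 ratio of the set. LINC00261 (gene ID 140828) is a long noncoding RNA of endoderm, known in human cells for promoting expression of its neighbour FOXA2. It was at 7.33 FPKM in knockdown cells and at the deposited floor of 0.01 FPKM in scramble cells. The inferred reads were 777 in knockdown cells and 0 in scramble cells. Set against 3 reads, the floor used for a library with none, the level was 268-fold higher. The 95% interval, computed from 0 scramble reads, begins at 217. The gene lies on chromosome 20 from 22547671 to 22578642 on the minus strand (GRCh38, GENCODE release 29), and 97.3% of the 31-base words of its longest transcript also occur in AL121722.1, an annotated gene of the same strand and locus, so the reads of these annotations cannot be told apart. FOXA2, the pioneer factor of endoderm whose gene lies 2362 bases away on the same strand in GENCODE (2355 bases in RefSeq), was at 56.5 FPKM in knockdown cells and 0.05 FPKM in scramble cells. Its 3027 knockdown reads and 3 scramble reads gave a ratio of 1044 (interval 357 to 5063). Both genes of this locus were thus at 3 reads or fewer in scramble cells and at 777 reads or more in knockdown cells, with FOXA2 at the higher level.

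GATA6-AS1 (gene ID 100128893) starts beside GATA6, a transcription factor of endoderm and heart, and is transcribed away from it. The antisense gene was at 4.16 FPKM in knockdown cells and at the floor of 0.01 FPKM in scramble cells, with 284 reads and 0 reads. Against the same 3 reads it was 97.9-fold higher, and the interval, computed from 0 scramble reads, begins at 79.1. GATA6 was at 28.7 FPKM in knockdown cells and 0.06 FPKM in scramble cells, a ratio of 501 (interval 214 to 1544) that rests on 5 scramble reads. In GENCODE the starts of the pair are 435 bases apart, with the antisense start inside GATA6, and 240 exon bases are shared on opposite strands. In RefSeq, from which the sequences above come, the starts are 621 bases apart and the genes do not overlap. In the knockdown library GATA6 was 6.90 times as abundant as its antisense gene per length.

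LINC00479 (gene ID 150135) was at 4.18 FPKM in knockdown cells and 0.07 FPKM in scramble cells. Its reads, estimated from FPKM only, were 183 in knockdown cells and 3 in scramble cells, a ratio of 63.1 with a wide interval (21.3 to 309). The longest annotated transcripts of LINC00479, GATA6-AS1 and LINC01184 share no 31-base word with another gene, although 7.56% of all exon bases of GATA6-AS1 lie under GATA6 exons. LINC01356 was the most abundant of the higher genes, at 177 FPKM in knockdown cells and 17.05 FPKM in scramble cells. Its ratio was 10.4 (interval 9.72 to 11.1) on about 9826 knockdown reads and 979 scramble reads. By level it was the 18th of the 2005 listed genes in knockdown cells and the 152nd in scramble cells, and 41.8% of its words occur in other genes (20.7% in AL390729.1).

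HAS2-AS1 is the antisense gene of HAS2, which makes hyaluronan at the cell surface. It was at 3.54 FPKM in knockdown cells and 0.27 FPKM in scramble cells, with 139 and 11 reads and a ratio of 13.1 (interval 7.08 to 26.8). HAS2 itself was at 33.8 FPKM in knockdown cells and 0.98 FPKM in scramble cells, a ratio of 34.4 (interval 27.3 to 43.9). Both intervals of the pair lie above 7-fold. HAS2 was 9.53 times as abundant as its antisense gene in knockdown cells and 3.63 times in scramble cells. The pair shares 201 exon bases on opposite strands, and 10.5% of the words of HAS2-AS1 are the complement of HAS2 sequence.

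FZD10-AS1 lies beside FZD10, a Wnt receptor, with the starts 203 bases apart in GENCODE and no overlap. The antisense gene was at 1.39 FPKM in knockdown cells and 0.34 FPKM in scramble cells, a ratio of 4.05 (interval 2.57 to 6.63) on 94 and 24 reads. FZD10 was at 3.06 FPKM in knockdown cells and 0.74 FPKM in scramble cells, a ratio of 4.14 (interval 3.08 to 5.65). The ratios of both genes lie inside each other's interval, and FZD10 was 2.20 times as abundant as its antisense gene in knockdown cells and 2.18 times in scramble cells.

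The other higher antisense genes had ratios near 2-fold, and their partners were not in the table. TSPEAR-AS1 was at 4.92 FPKM in knockdown cells and 2.08 FPKM in scramble cells, a ratio of 2.37 (interval 2.10 to 2.68). H1FX-AS1, beside a linker histone gene, was at 3.69 FPKM in knockdown cells and 1.60 FPKM in scramble cells, a ratio of 2.30 (interval 1.78 to 2.997). SLC25A25-AS1, opposite a mitochondrial carrier gene, was at 4.04 FPKM in knockdown cells and 1.81 FPKM in scramble cells, a ratio of 2.23 (interval 1.82 to 2.74). Of these antisense genes, TSPEAR-AS1 alone had an interval wholly above 2-fold. VPS9D1-AS1, a transcript known as a MYC target in colon cancer cells, was at 6.32 FPKM in knockdown cells and 2.92 FPKM in scramble cells, a ratio of 2.16 (interval 1.83 to 2.57). Of its words, 22.9% are VPS9D1 sequence on the other strand, and for SLC25A25-AS1 21.9% are found in other genes. LINC00467, which is known to be repressed by MYCN in neuroblastoma cells, was at 6.43 FPKM in knockdown cells and 2.45 FPKM in scramble cells, a ratio of 2.64 (interval 2.20 to 3.17).

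**Figure D2:**
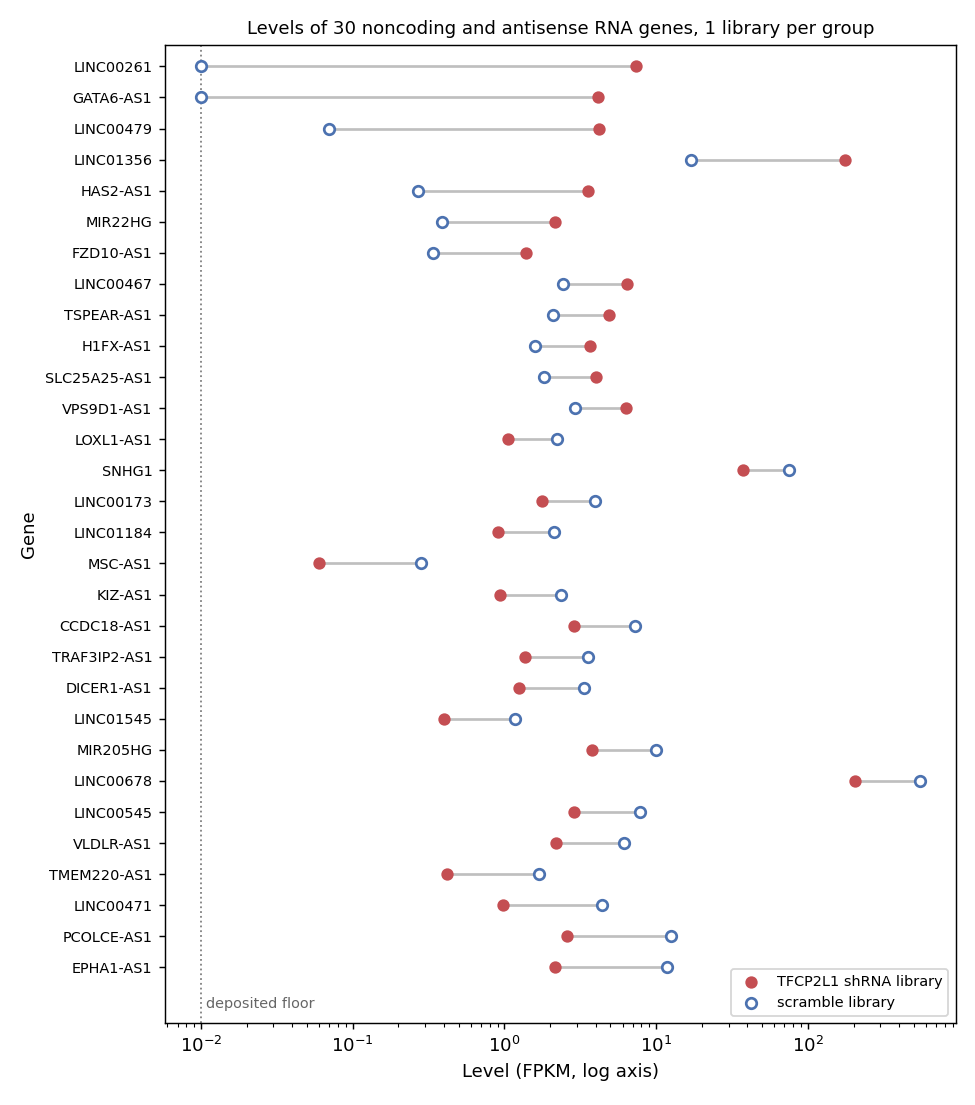
Levels in FPKM (log axis) of the 30 genes in the TFCP2L1 shRNA library (filled red) and the scramble library (open blue), 1 point per library, ordered from the highest to the lowest log2 ratio. LINC00261 and GATA6-AS1 sit on the deposited floor of 0.01 FPKM in scramble cells, and LINC00678, LINC01356 and SNHG1 are the most abundant.

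LINC00678 (gene ID 101410541) was the most abundant gene of the set in both libraries and was lower in knockdown cells. It was at 206 FPKM in knockdown cells and 545 FPKM in scramble cells, the 15th and the 3rd highest level of all listed genes. The ratio was 0.377 (interval 0.362 to 0.393) on about 3186 knockdown reads and 8734 scramble reads, the narrowest interval of the lower genes. LINC00678 and LINC01356 thus both stood among the most abundant transcripts of the table and lay on opposite sides, with LINC01356 close to LINC00678 in knockdown cells and far below it in scramble cells. LINC00173 was at 1.76 FPKM in knockdown cells and 3.96 FPKM in scramble cells, a ratio of 0.446 (interval 0.352 to 0.562).

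EPHA1-AS1 and PCOLCE-AS1 had the lowest ratios among the genes past 1 FPKM. EPHA1-AS1, opposite an ephrin receptor gene, was at 2.16 FPKM in knockdown cells and 11.78 FPKM in scramble cells, a ratio of 0.184 (interval 0.119 to 0.274) on 29 and 163 reads. PCOLCE-AS1, opposite the gene of a procollagen-processing enhancer, was at 2.58 FPKM in knockdown cells and 12.54 FPKM in scramble cells, a ratio of 0.205 (interval 0.171 to 0.245). Neither partner had a row. FBXO24, an F-box gene that overlaps PCOLCE-AS1 on the other strand and holds 28.8% of its words, was at 0.65 FPKM in knockdown cells and 1.89 FPKM in scramble cells. LINC00471 was at 0.98 FPKM in knockdown cells and 4.41 FPKM in scramble cells, a ratio of 0.223 (interval 0.115 to 0.401). Its neighbour NMUR1, a neuromedin U receptor gene that lies 4077 bases away in RefSeq and 8820 bases away in GENCODE, was at 0.21 FPKM in knockdown cells and 0.84 FPKM in scramble cells. Both neighbours were lower together with the noncoding gene beside them.

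Further lower genes lay between 2-fold and about 4-fold. TMEM220-AS1 was at 0.42 FPKM in knockdown cells and 1.69 FPKM in scramble cells, a ratio of 0.249 (interval 0.145 to 0.410), and 44.6% of its words occur in other genes. VLDLR-AS1, opposite a lipoprotein receptor gene, was at 2.20 FPKM in knockdown cells and 6.16 FPKM in scramble cells, a ratio of 0.358 (interval 0.258 to 0.491). DICER1-AS1 lies head to head with DICER1, the enzyme that cuts microRNA precursors, and was at 1.25 FPKM in knockdown cells and 3.32 FPKM in scramble cells. The partners of these antisense genes had no row. LINC00545 was at 2.88 FPKM in knockdown cells and 7.81 FPKM in scramble cells, and 56.2% of its words are TEX26-AS1 sequence on the other strand. CCDC18-AS1 was at 2.88 FPKM in knockdown cells and 7.26 FPKM in scramble cells, a ratio of 0.396 (interval 0.330 to 0.474). TRAF3IP2-AS1, opposite the gene of an IL-17 signalling adaptor, was at 1.37 FPKM in knockdown cells and 3.56 FPKM in scramble cells. TRAF3IP2-AS1 rests on few reads, 24 in knockdown cells and 64 in scramble cells. LINC01545 was at 0.40 FPKM in knockdown cells and 1.18 FPKM in scramble cells. LINC01184, named here after its values were seen, was at 0.90 FPKM in knockdown cells and 2.13 FPKM in scramble cells.

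**Figure D3:**
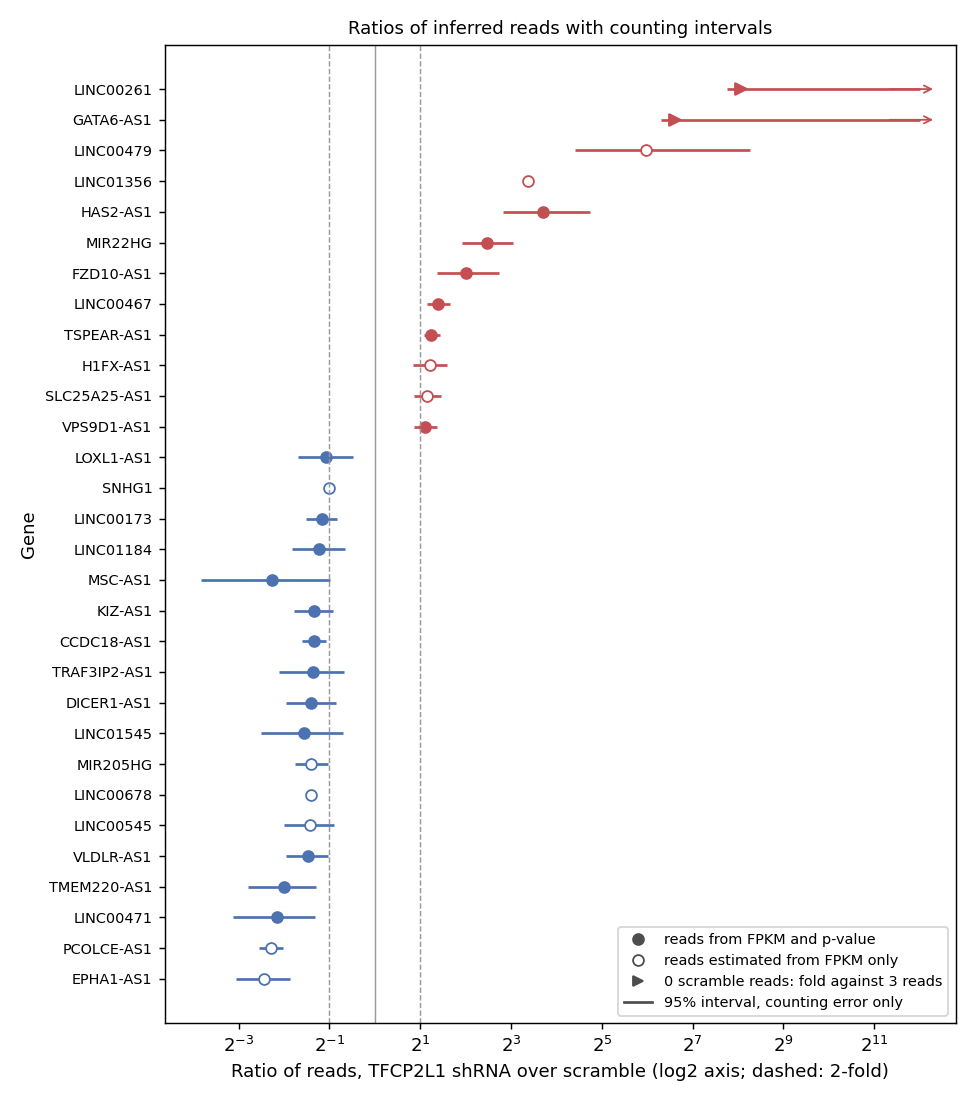
Ratio of inferred reads, knockdown over scramble, scaled by depth (log2 axis), with exact 95% intervals that cover counting error only. Reads were inferred from FPKM and p-value for 20 genes. Of these, LINC00261 and GATA6-AS1, with 0 scramble reads, are triangles against a floor of 3 reads. The others are filled points, and open points rest on reads estimated from FPKM. Dashed lines mark 2-fold, which the intervals of 13 genes reach or cross.

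The host genes lay on both sides. MIR22HG, which carries miR-22 shown above, was at 2.15 FPKM in knockdown cells and 0.39 FPKM in scramble cells, a ratio of 5.52 (interval 3.79 to 8.26) on 176 and 33 reads. WDR81, a gene of endosome maturation next to MIR22HG on the other strand, was at 4.88 FPKM in knockdown cells and 2.41 FPKM in scramble cells, a ratio of 2.02. MIR205HG, the host of miR-205 of epithelial cells, was at 3.79 FPKM in knockdown cells and 10.0 FPKM in scramble cells, a ratio of 0.379 (interval 0.294 to 0.486). The microRNA host genes therefore differed in direction. SNHG1, which carries small nucleolar RNAs in its introns, was at 37.4 FPKM in knockdown cells and 75.5 FPKM in scramble cells. Its ratio of 0.495 (interval 0.465 to 0.526) includes exactly 2-fold lower, and its level was the 87th of the table in knockdown cells and the 28th in scramble cells.

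The antisense genes were then set beside their partners. By GENCODE positions, all 17 lie on the strand opposite the partner, 14 share exon bases with it, and 6 are head to head, with starts within 2000 bases. Of the 17 partners, 6 had a row, and 5 of the 6 pairs differed in the same direction. Partner and antisense gene were higher together at GATA6, HAS2 and FZD10, given above. They were lower together at MSC and KIZ. MSC-AS1 was at 0.06 FPKM in knockdown cells and 0.28 FPKM in scramble cells, on 6 and 30 reads, a ratio of 0.207 (interval 0.0704 to 0.505), and it is the member below 1 FPKM in both libraries. MSC, a basic helix-loop-helix repressor, was at 0.44 FPKM in knockdown cells and 2.65 FPKM in scramble cells, a ratio of 0.158 (interval 0.0923 to 0.258). KIZ-AS1 was at 0.93 FPKM in knockdown cells and 2.35 FPKM in scramble cells, a ratio of 0.394 (interval 0.291 to 0.528). KIZ, a centrosome protein, was at 9.22 FPKM in knockdown cells and 20.11 FPKM in scramble cells, a ratio of 0.459 (interval 0.422 to 0.498). In both pairs the partner was the more abundant gene in each library.

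LOXL1 was the pair that differed in opposite directions. LOXL1-AS1, known from a locus linked to exfoliation glaucoma, was at 1.05 FPKM in knockdown cells and 2.21 FPKM in scramble cells, a ratio of 0.476 (interval 0.310 to 0.720) on 35 and 76 reads. LOXL1, an enzyme that cross-links elastin, was at 9.39 FPKM in knockdown cells and 4.41 FPKM in scramble cells, a ratio of 2.13 (interval 1.82 to 2.50). The counting intervals of the pair do not overlap and lie on opposite sides of 1. LOXL1 was 8.94 times as abundant as its antisense gene in knockdown cells and 1.996 times in scramble cells, although 335 exon bases are shared on opposite strands.

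Neighbours in general were counted by gene positions from RefSeq. Within 5 kb, 10 pairs of a noncoding or antisense gene and a listed gene were found, and 9 of them (90.0%) differed in the same direction. Of the other 122 pairs of listed genes within 5 kb, 85 (69.7%) did. In GENCODE, LINC00471 and NMUR1 lie farther apart, and without them 8 of 9 pairs did. The 10 pairs include the 6 partner pairs above and those of LINC00261 with FOXA2, LINC00471 with NMUR1, MIR22HG with WDR81 and PCOLCE-AS1 with FBXO24. No source used here gives the strand setting of the authors' counting, so where exons overlap on opposite strands, reads of a gene and its antisense partner cannot be told apart. Exons of 20 of the 30 genes lie in part under exons of the opposite strand, all 17 antisense genes among them. FOXA2 with LINC00261 lies on the same strand, and FZD10 with FZD10-AS1 has no overlap.

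**Figure D4:**
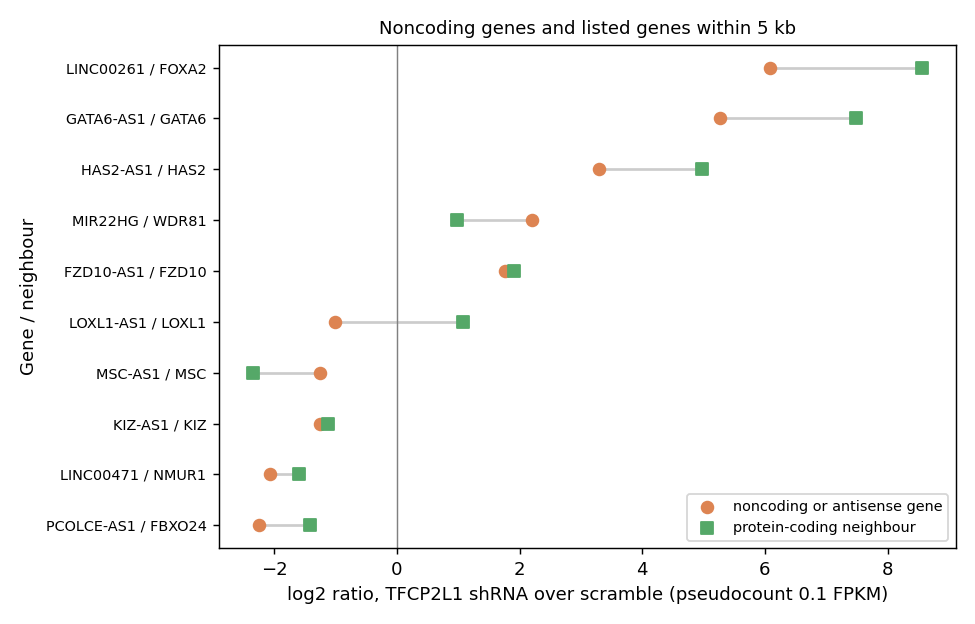
Log2 ratios, knockdown over scramble with a pseudocount of 0.1 FPKM, of 10 noncoding or antisense genes (orange circles) and their listed protein-coding neighbours within 5 kb in RefSeq (green squares), 1 value per gene. The LOXL1-AS1 and LOXL1 points lie on opposite sides of 0, and the points of the other 9 pairs lie on the same side.

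Shared sequence limits some of these values. Over 20% of the 31-base words of 8 genes occur in other annotated genes on either strand, and the median over all 30 genes is 9.05%. These 8 are LINC00261, LINC00545, TMEM220-AS1, PCOLCE-AS1, LINC01356, MSC-AS1, VPS9D1-AS1 and SLC25A25-AS1. Without them, 8 genes were higher and 14 lower by 2-fold or more.

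A list of 28 noncoding genes of pluripotent or endoderm cells was set beside the table. Of these, 6 had a row, 4 higher and 2 lower, where 5.86% of all tested genes were listed as higher and 4.98% as lower. The list was chosen with earlier results of these data known, so the count is a description. LINC00261, GATA6-AS1 and LINC00479 were higher and LINC00678 and LINC00173 lower, as given above. The remaining one was LHX1-DT, deposited under another symbol, which is divergent from the endoderm and organizer gene LHX1. It was at 10.6 FPKM in knockdown cells and 0.50 FPKM in scramble cells, a ratio of 21.7 (interval 12.7 to 40.2). Of a second list of 40 well-known noncoding genes outside the symbol rule, among them MALAT1, NEAT1, MEG3, H19, GAS5 and TUG1, none had a row, so nothing is said of their levels.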

How the data were processed

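Per the labels' protocols, Trizol was used to extract RNA from both HES2 cultures, and 1 ug of total RNA went into each library for a BGISEQ-500 instrument. Bowtie 0.12.2 and the build hg19 are named in the submitters' processing notes. Neither the quantifier nor the test, strand setting or filters behind the values are given in the sources used. For 2005 genes, the authors' deposited table gives both levels with a gene length, their log2 ratio, and the p-value and false discovery rate (FDR) of a test. Its levels were read as FPKM, the deposited unit closest to the values, and RPKM cannot be told apart from it.

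The authors' deposited table runs to an FDR of 0.000990 and holds no log2 ratio smaller than 1 in size, so a gene outside these limits has no row. The table holds no counts, so whole reads were inferred. Whole read pairs were searched for that give the FPKM of each library together with the deposited p-value under the Poisson comparison of Audic and Claverie (smaller tail, doubled), to a tolerance of 0.0002 in the natural log. Such a pair was found for 1524 of the 1926 genes whose p-value exceeds 0, and it was the only one for 1517. Reads of the other genes were estimated from FPKM. On simulated reads, 96.5% of the intervals held the true fold of 200 changed genes. These intervals used the drawn reads themselves, with the expected scramble reads raised to a minimum. Coverage with inferred reads, or for genes with few or no scramble reads, was therefore not tested. In a simulated table a read pair was found for 100% of the rows, so reads estimated from FPKM were not tested either.

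Log2 ratios were computed as log2 of knockdown FPKM plus 0.1 over scramble FPKM plus 0.1, which understates the ratios of low genes. Genes were counted where either library reached 1 FPKM. Depth-scaled read ratios carry Clopper-Pearson exact 95% intervals. These cover counting error alone, because variation between cultures or libraries cannot be estimated from 1 library per group. PCR copies cannot be recognised without molecular identifiers either. With 1 library per group, no p-value was computed.

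Gene positions came from GENCODE release 29 (GRCh38), the choice of neighbours within 5 kb from RefSeq, and promoter and miRNA sequences from RefSeq (GRCh38.p14). The members and lists were chosen with earlier results of these data known. The genes named were TFCP2L1, the 12 counted members at either end of the log2 ratios, the 5 members with the highest FPKM, each antisense gene whose partner has a row, the host genes and the listed genes of both noncoding lists. Alternatives were other pseudocounts and level limits, the counting interval, subsets by name, current symbols and the removal of genes with shared sequence. The work used Python 3.11.15, pandas 2.3.3 and scipy 1.17.1. Values of some genes are not reported here.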

Additional observations from a re-analysis of the deposited data

How the results depend on the processing

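No member's ratio changed direction under any alternative run, but these runs could not show such a change. The same pseudocount added to both levels keeps the direction, and the reads were inferred from the same levels. With a pseudocount of 1 FPKM, 7 genes were higher and 8 lower by 2-fold or more, and 14 of the 30 single ratios moved. From 5 FPKM upward there were 4 higher and 8 lower genes. The counting interval lay beyond 2-fold for 8 lower genes, against 17 by the ratio itself. LINC genes alone gave 4 higher and 6 lower, and antisense genes alone 7 higher and 9 lower, fewer by construction. Head-to-head pairs alone left 2 pairs, both in the same direction. The other alternatives stayed within 1.5 times the reported counts, and the median log2 ratio ran from -1.34 to -0.72. Current RefSeq symbols, an alternative chosen after seeing the data like the removal of genes with shared sequence, gave 16 higher and 18 lower. Genes on few reads, such as MSC-AS1 with 6 and 30, are limited by depth. No paired analysis was possible because each group had 1 library.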

Other observations

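Noncoding genes whose deposited symbol lies outside the naming rule added 20 genes to the picture, 14 higher and 6 lower in knockdown cells, where 54.1% of the whole table was higher and 45.9% lower. By current RefSeq symbols 7 of them carry names of the same kind (5 higher and 2 lower), and 8 are divergent transcripts (7 higher and 1 lower). These genes were chosen after their values were seen. Among the divergent transcripts, LHX1-DT was higher together with LHX1, a factor of the organizer and endoderm, which was at 52.8 FPKM in knockdown cells and 0.20 FPKM in scramble cells. ERICH2-DT, ADAMTS16-DT and JAKMIP1-DT also differed in the same direction as their partners. Not every divergent pair is described here, so these do not give a share of pairs that differed together.

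LINC01356 and LINC00678 share a feature in the authors' deposited table, where their closest protein match is named as an embryonic stem cell related protein. That annotation was given to 9 genes of the table, 6 higher and 3 lower, where 54.1% of the whole table was higher and 45.9% lower. The other 7 of these 9 are loci without a symbol. The longest annotated transcripts of LINC01356 and LINC00678 share 3 words of 31 bases.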
